A study of Mus musculus with 2 samples.

Results

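The entries miR-680 to miR-721 are a run of mouse microRNA names first given to short RNAs found by signature sequencing of mouse embryos. They were taken from the array as every mouse miRNA entry whose number lies in that run, ends included, and whose name does not end in a star, which gave 42 of the 567 mouse miRNA entries. The rule reads names only, though the range was picked with earlier results of these data known. A canonical miRNA is cut from a hairpin by Drosha and Dicer and guides an Argonaute protein to target messages, mainly through its seed near the 5′ end. Several names of this run were later traced to pieces of other RNAs. The miR-712 sequence lies in an internal spacer of the ribosomal RNA precursor, miR-714 and miR-715 have been placed in the same precursor, and miR-720 is a fragment of a threonine transfer RNA.

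The study profiled miRNAs of adipocyte-derived microvesicles, small membrane vesicles that fat cells release. The cells were 3T3-L1, an established mouse preadipocyte line that becomes adipocytes under a hormone mix, here insulin at 10 µg/ml, dexamethasone at 0.25 µM and 3-isobutyl-1-methylxanthine at 0.5 mM, in high-glucose DMEM with 10% fetal calf serum. One group was vesicles from medium conditioned for 48 h over day 2 to day 4, and the other was vesicles from medium conditioned for 48 h over day 8 to day 10. Vesicles were pelleted by ultracentrifugation, RNA was extracted with Trizol, and 100 ng per array was dephosphorylated, labelled with Cy3 and hybridised. Both groups carried the same hormones, serum and line, and the labels name no serum-only or untreated control, so RNA from serum and RNA from cells cannot be told apart here.

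There was 1 array per window, and the number of arrays limthe precision. No test between windows was possible, and preparation, array and window cannot be told apart. Every standard deviation (SD) and standard error (SE) is over repeated spots of 1 array and is technical. Values are background-subtracted processed intensities. The word detected is used of a probe with more than 0.5 of its spots well above background, and of an entry with at least 1 such probe. Differences are log2 values, day 8-10 minus day 2-4, after each array was divided by the 75th percentile of the 279 probes detected on both (108 and 95.2 intensity units), so that equal intensities stand for a log2 difference of 0.19. Signals below the lowest detected probe of an array (4.86 and 5.55) were raised to it. No spot was saturated, and the 660 and 656 negative control spots had SDs of 0.983 and 1.02. Marker miRNAs, listed with earlier results known and so no independent check of the labels, were counted as a description. All 5 adipocyte markers (miR-103, miR-107, miR-143, miR-148a and miR-378) were detected on both arrays, 4 at least 2-fold higher at day 8-10 beside 15.9% of all miRNAs detected on both. All 3 fibroblast markers (miR-199a-5p, miR-199b and miR-214) were detected, 2 at least 2-fold lower beside 7.59% of all. Blood markers were detected for 2 of 3 and then 3 of 3, and none of the 3 muscle markers or the 1 liver marker was detected. Over all mouse miRNAs 27.5% and then 29.3% were detected, and these lists are too short to compare with those shares.

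The mature sequences below belong to the entries whose signals carry the results, and their probes are taken to cover only the last bases of each. The sequences are from RefSeq, build GRCm38.p6, written 5′ to 3′ with the seed, bases 2 to 8, in capitals. Below miR-721 stands miR-130a-3p, which is outside the range and shares the seed of miR-721.
miR-680: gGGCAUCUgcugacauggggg
miR-681: cAGCCUCGcuggcaggcagcu
miR-690: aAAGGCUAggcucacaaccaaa
miR-705: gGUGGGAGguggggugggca
miR-706: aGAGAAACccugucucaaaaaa
miR-710: cCAAGUCUuggggagaguugag
miR-711: gGGACCCGgggagagauguaag
miR-718: cUUCCGCCcggccgggugucg
miR-721: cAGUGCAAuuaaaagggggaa
miR-130a-3p: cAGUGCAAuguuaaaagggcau
The seed of miR-721 was shared with 6 other mature mouse miRNAs of the table, among them miR-130a-3p, miR-130b-3p and miR-301a-3p. The seed of miR-705 was shared with 3 others, and the seeds of the other entries printed here with none. Base composition ranged widely, from 36.4% G and C in miR-706 to 75% in miR-705 and 81.0% in miR-718.

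On GRCm38.p6 the miR-680 sequence lies at 3 places, chr6:129691541-129691561 on the plus strand, chr12:35194849-35194869 on the minus strand and chrX:144297790-144297810 on the plus strand, none inside another RefSeq gene. miR-710 (chr8:64514401-64514422, minus strand) also lies outside other genes. The remaining entries lie within the span of a protein-coding gene by position. miR-681 (chr12:69763923-69763943, minus) lies in Cdkl1 and miR-690 (chr16:28599940-28599961, minus) in Fgf12, a fibroblast growth factor family gene. miR-705 (chr6:85336341-85336360, minus) lies in Rab11fip5, which encodes a Rab11 effector of vesicle recycling. miR-706 (chr6:120034290-120034311, minus) lies in the kinase gene Wnk1. miR-711 (chr9:108969970-108969991, plus) lies in the collagen gene Col7a1. miR-718 (chrX:74023857-74023877, minus) lies in Irak1, a kinase of interleukin-1 receptor signalling, and miR-721 (chr5:136375777-136375797, minus) in Cux1. Exon and intron boundaries were not used here. RefSeq names matched 26 of the 42 entries. Entries without a match were miR-685, miR-689, miR-709, miR-712, miR-714, miR-715 and miR-720 among those detected.

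The entries were read by 160 probes, 4 probes of 5 spots each for 38 entries and 2 probes of 10 spots each for miR-689, miR-690, miR-709 and miR-720. The files give a genome interval per probe for 39 of the 42 entries, but the sources used here do not name its genome build. In all 39 the probes of an entry shared one end and grew by 1 base from probe to probe, between 10 and 21 bases. For 44 of 46 miRNA pairs from the arms of one hairpin, over the whole array, the shared ends lay as far apart as the RefSeq 3′ ends do, and for 23 of the 46 as far apart as the 5′ ends, so that many pairs fit both ends. The interval is taken here as the last bases of each sequence above. For miR-680, for example, the shortest probe covers the last 10 bases and the longest the last 13, which adds the bases gcu toward the 5′ end. No probe of miR-680, miR-681, miR-710 or miR-718 reaches the capital letters. For miR-696, miR-712 and miR-714 the order of probes is known only from their numbers. Probes of 1 entry differ in length, so their signals are not amounts, and signals of different entries are not compared as amounts.

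At day 2-4 14 of the 42 entries were detected (33.3%, against 27.5% of all mouse miRNAs), and at day 8-10 18 were (42.9%, against 29.3%). On at least 1 array 18 were detected, 42.9% beside 31.2% of all, and both arrays detected 14 of them. The other 4, miR-681, miR-690, miR-691 and miR-715, were detected at day 8-10 only, which was seen for 3.7% of all mouse miRNAs. None was detected at day 2-4 only (1.94% of all). Among entries with 4 probes, 14 of 38 (36.8%) were detected on at least 1 array, beside 32 of 226 (14.2%) of the other 4-probe miRNAs. All 4 entries with 2 probes were detected, beside 124 of 283 (43.8%) of the other 2-probe miRNAs.

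Detected entries of the range had shorter probes than undetected ones at the median. The longest interval of an entry had a median of 13 bases over the 16 detected entries with positions (12 to 19) and of 17 bases over the 23 never detected (13 to 21). Of the 11 entries whose longest interval was at most 13 bases 81.8% were detected, against 7 of 28 (25%) with longer intervals. Among the other mouse miRNAs, 53.8% of 26 entries with intervals of at most 13 bases were detected and 145 of 495 (29.3%) with longer ones. The intervals of the other miRNAs had a median of 18 bases whether they were detected or not. No sequence property was varied independently of the rest, and the part that probe length played was not tested.

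**Figure D1:**
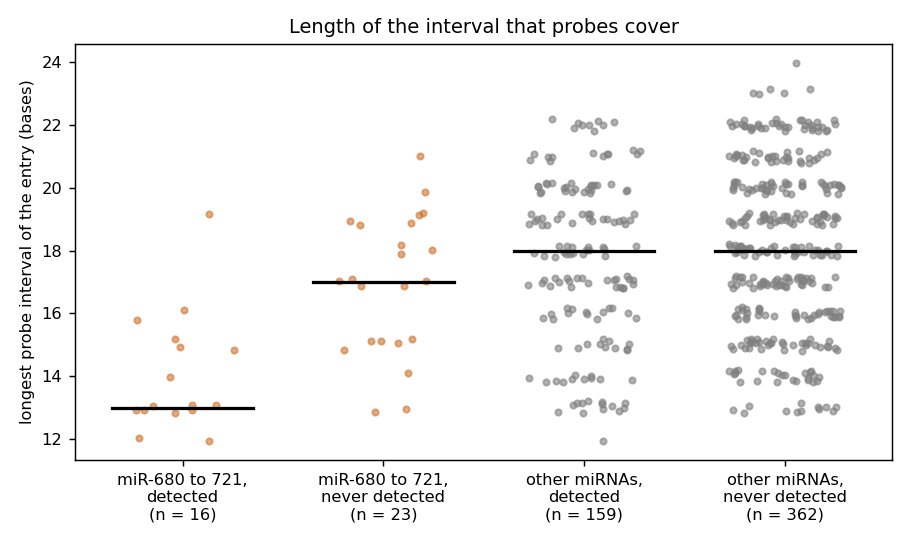
Longest probe interval of each entry in bases, for entries miR-680 to miR-721 and for the other mouse miRNAs, split by detection on at least 1 array; each point is 1 entry, moved slightly at random for display, and the bar is the median. Detected entries of the range centre on 13 bases, never-detected ones on 17, and both groups of other miRNAs on 18.

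Of the 14 entries detected on both arrays, 5 exceeded 2-fold and 2 spot SE upward (miR-705, miR-706, miR-714, miR-718 and miR-721), as did 15.9% of all miRNAs that both arrays detected. By the same rule 3 were lower (miR-680, miR-710 and miR-720), beside 7.59% of all. The remaining 6, miR-685, miR-689, miR-697, miR-709, miR-711 and miR-712, lay within 2-fold. In either direction 8 of 14, 57.1%, passed the fold, beside 23.4% of all and 19.8% of the other miRNAs. Restricted to 4-probe entries, 7 of 11 (63.6%) passed, beside 4 of 23 (17.4%) of the other miRNAs. When the scale was the 75th percentile of all probes, the split of 5 higher and 3 lower became 3 higher and 5 lower. With normexp background correction only 1 was higher and 2 lower, while 5 of all miRNAs were higher and 5 lower. That setting adds 50 intensity units to every spot, which shrinks the differences of dim probes by construction. Its lower counts thus cannot show whether the calls of dim entries hold. The median log2 difference was 0.32, beside 0.20 over all miRNAs, and it turned to -0.19 with the all-probe percentile, where the median of all miRNAs was -0.30. Large differences of both signs thus lay on either side of a small median.

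**Figure D2:**
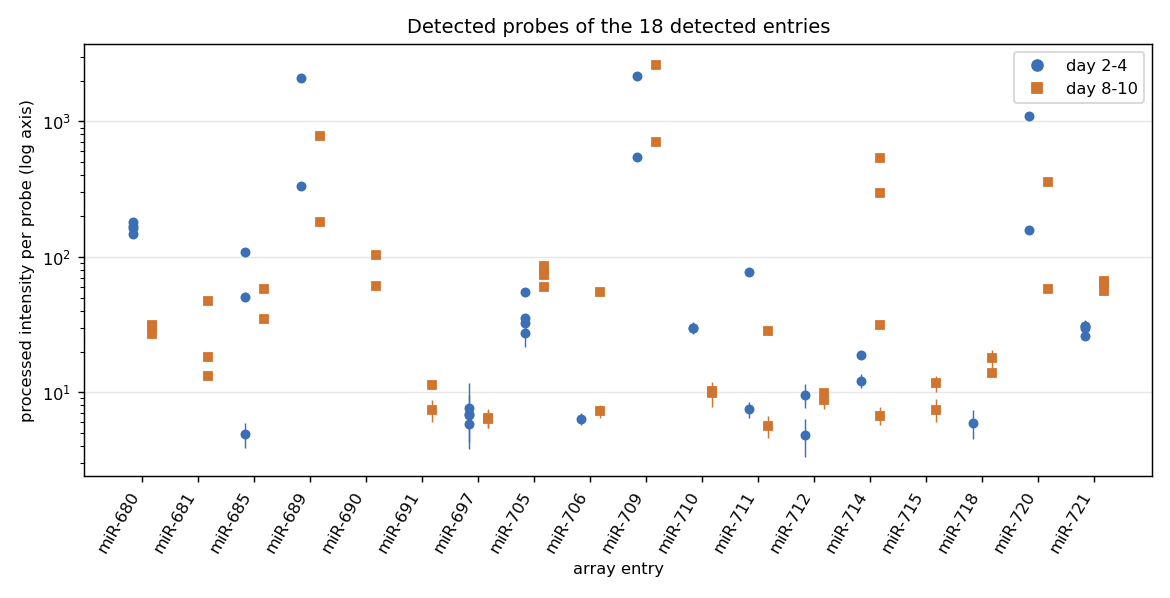
Processed intensity (log axis) of every detected probe of the 18 detected entries, with 1 point per probe, its vertical line the SD over spots, and colours for the windows. The miR-680 probes sit at 147 to 179 at day 2-4 and at 26.8 to 31.4 at day 8-10, while both miR-690 probes appear at day 8-10 only.

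All 4 probes of miR-680 gave similar signals, each far lower at day 8-10. They read 179 ± 5.04 (SD, n = 5 spots), 169 ± 1.16 (n = 4), 147 ± 8.94 (n = 5) and 163 ± 9.17 (n = 5) at day 2-4. At day 8-10 they read 31.4 ± 1.54, 29.6 ± 3.21, 26.8 ± 1.59 and 30.6 ± 1.21 (n = 5 each). The windows did not overlap on any probe. The 4 probes differed between windows by nearly the same amount, with log2 differences of -2.33, -2.33, -2.27 and -2.23. The entry's mean was -2.29 (spot SE 0.03), the lowest of the 18 detected entries. Adding the 3 bases of the longer probes left the signal almost level, as the last probe read 0.908 of the first at day 2-4 and 0.972 at day 8-10.

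The entries miR-705 and miR-721 were higher at day 8-10 on every probe. miR-705 has been studied in the fate choice of bone marrow stromal cells, the precursors that become fat or bone. Its probes read 32.3 ± 3.53, 27.4 ± 5.70, 35.5 ± 2.30 and 54.9 ± 3.25 (SD, n = 5 spots each) at day 2-4. At day 8-10 they read 78.5 ± 3.38 (n = 5), 59.4 ± 0.389 (n = 4), 72.8 ± 1.57 (n = 5) and 86.1 ± 3.39 (n = 5). Signals were not level at day 2-4, where the last probe read 1.70 times the first, and were closer at day 8-10, at 1.10 times. The log2 differences shrank with probe length, from 1.48 and 1.33 to 1.23 and 0.84, and the entry's mean was 1.22 (spot SE 0.04).

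For miR-721, which has been studied in T cells during myocarditis, the 4 probes read 31.0 ± 2.30, 26.1 ± 1.29, 30.8 ± 3.56 and 29.8 ± 1.64 (SD, n = 5 spots each) at day 2-4. The readings at day 8-10 were 64.1 ± 1.28, 56.0 ± 3.71, 63.8 ± 2.46 and 66.0 ± 3.27 (n = 5 each). The last probe read 0.963 and 1.03 of the first, and the probes had log2 differences between 1.24 and 1.33 and a mean of 1.28 (spot SE 0.03). Both miR-705 and miR-721 fell below 2-fold with the all-probe percentile (0.71 and 0.77), with quantile normalization (0.85 and 0.84) and with normexp background correction (0.60 and 0.60). miR-705 also did so with the brightest probe only (0.84). miR-130a, which shares the miR-721 seed, differed less between windows. Its probes read 142 and 227 at day 2-4 and 172 and 275 at day 8-10, and both were 1.38-fold higher. Counted back from the 3′ end, where the probes lie, miR-721 and miR-130a-3p have the same base at 8 of the last 12 positions and at 9 of the last 15. These counts allow no shift. Both sequences hold the run uuaaaaggg, which lies 1 base further from the 3′ end in miR-721. The miR-301a entry was detected at day 8-10 only, at 9.38 on 1 of its 2 probes. Whether signal crosses between these probes was not tested.

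miR-697 was dim on all its probes. They read 7.72, 6.90, 6.77 and 5.81 at day 2-4, with SDs of 3.91, 2.61, 1.32 and 0.405 (n = 5 spots each). At day 8-10 they read 6.45, 6.50, 6.33 and 5.71, and only the second and the third were detected. The windows overlapped on all 4 probes. The log2 difference of 0.15 (spot SE 0.11) turned negative under 4 of 13 alternative settings, so no direction is given.

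**Figure D3:**
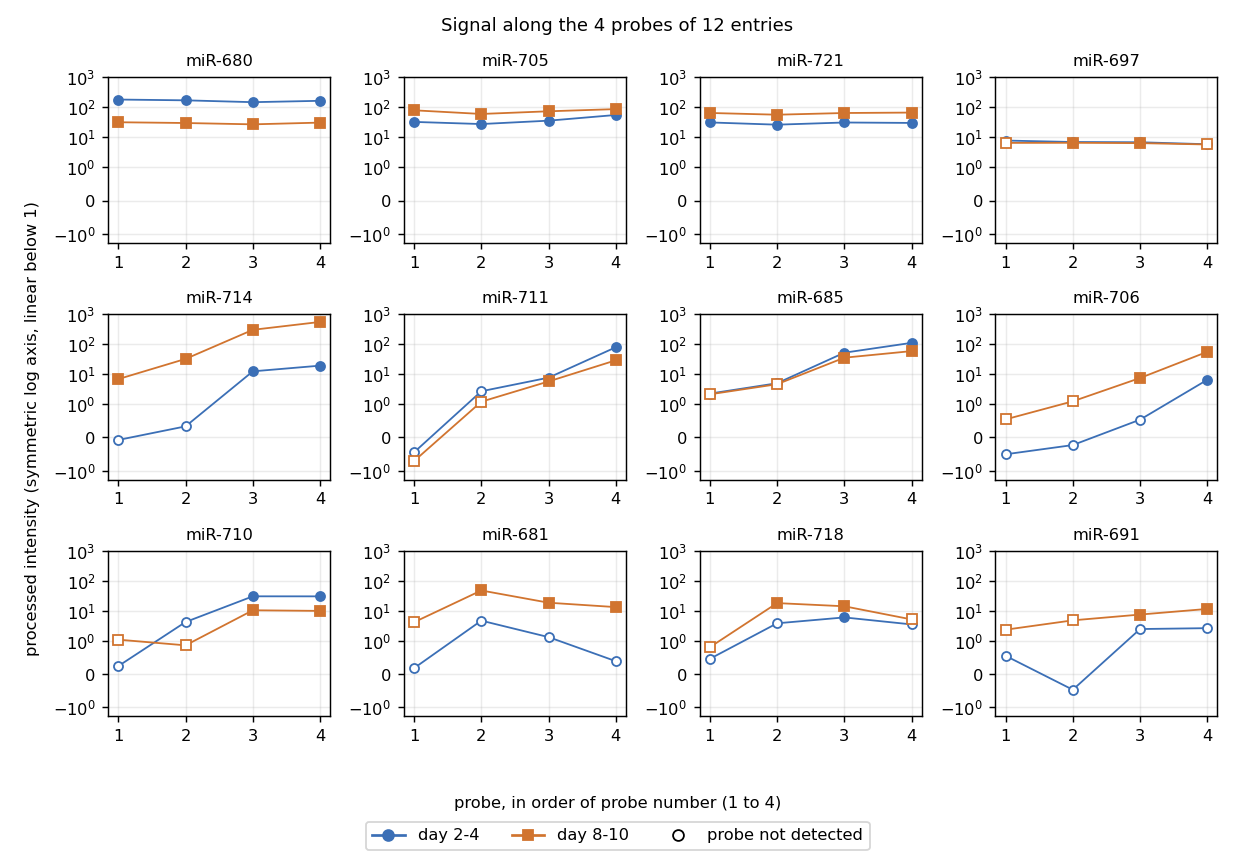
Processed intensity (symmetric log axis, linear below 1) of probes 1 to 4, in order of probe number, for 12 entries with 4 probes; filled marks are detected probes, open marks are not, and colours are the windows. The traces of miR-680 and miR-721 are nearly level in both windows, that of miR-705 ends 1.70 times higher than it starts at day 2-4, and those of miR-711, miR-685 and miR-706 are highest at the last probe in both windows.

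Of the entries placed in the ribosomal RNA precursor, 2 of 3 were detected at day 2-4 and 3 of 3 at day 8-10. Over all mouse miRNAs the shares were 27.5% and 29.3%, and a list of 3 is too short to compare with them. Among those detected on both arrays 1 passed 2-fold, beside 23.4% of all. That one was miR-714, and its probes differed strongly among themselves. At day 2-4 they read -0.0805 ± 1.10, 0.327 ± 1.16, 12.2 ± 1.39 and 18.8 ± 1.01 (SD, n = 5 spots each), and the first and the second were not well above background. At day 8-10 all 4 were detected, at 6.71 ± 1.01, 31.6 ± 0.984, 294 ± 6.80 and 538 ± 30.1 (n = 5 each). The last probe then read 80.2 times the first. The third and the fourth probes, measured on both arrays, were 27.6-fold and 32.5-fold higher at day 8-10. The second was at least 7.39-fold higher. Here and below a bound sets the measured signal against the other array's signal with each spot raised to that array's lowest detected probe, both scaled. The entry's mean log2 difference of 3.34 (spot SE 0.03) includes such bounds and lies under that of the probes measured on both arrays.

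The other spacer entries were dim. miR-712 has been studied in the arterial wall, where it responds to disturbed blood flow. The first and the second probe were not detected on either array. The third read 9.57 ± 1.93 and 8.72 ± 1.19 and the fourth 4.86 ± 1.51 and 9.82 ± 0.629 at day 2-4 and day 8-10 (SD, n = 5 spots). The windows overlapped on the third probe and not on the fourth, with log2 differences of 0.061 and 1.03 and an entry mean of 0.55 (spot SE 0.09). miR-715 was detected at day 8-10 only, on the third and the fourth probes, at 7.43 ± 1.42 and 11.7 ± 1.64 against 4.88 ± 2.22 and 4.42 ± 2.16 (n = 5 spots). Its entry was at least 1.91-fold higher, below the 2-fold mark, and the log2 difference was 0.23 with normexp. The spacer entries did not share a size of change, with the largest probe of miR-714 at a log2 difference of 5.02 and that of miR-712 at 1.03.

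The transfer RNA fragment miR-720 was bright and lower at day 8-10. Its 11-base probe read 156 ± 5.98 (SD, n = 10 spots) and then 57.9 ± 1.48 (n = 9). The 12-base probe read 1091 ± 28.5 and then 354 ± 7.16 (n = 10 each). The log2 differences were -1.25 and -1.44, with a mean of -1.34 (spot SE 0.01). A single added base went with a 6.97-fold brighter signal at day 2-4 and a 6.11-fold brighter one at day 8-10.

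miR-689 and miR-709 were also brighter on the longer of their 2 probes. The miR-689 probes read 332 ± 6.36 and 2073 ± 37.3 (n = 10 spots each) at day 2-4, and 182 ± 3.1 (n = 9) and 785 ± 14.8 (n = 10) at day 8-10. Both were lower at day 8-10, with log2 differences of -0.68 and -1.22. The mean of -0.95 (spot SE 0.01) fell just short of 2-fold and passed it under 5 of 13 alternative settings. miR-709 is a nuclear miRNA known to act on the maturation of the miR-15a/16-1 precursor. Its probes read 548 ± 14.2 (n = 10) and 2171 ± 37.6 (n = 9) at day 2-4, and 707 ± 23.2 and 2604 ± 60.8 (n = 10 each) at day 8-10. The log2 differences of 0.55 and 0.45 were close to each other, and their mean of 0.50 became -0.0085 with the all-probe percentile. The second probe was 6.24-fold and 4.31-fold brighter than the first for miR-689 and 3.96-fold and 3.69-fold brighter for miR-709. Over the other miRNAs with both of 2 probes detected, the median of this ratio was 1.85 at day 2-4 (81 entries) and 1.78 at day 8-10 (84 entries). Steep steps occurred there too, with a ratio of at least 4 in 12 and 9 of these entries and highest values of 24.8 and 22.3.

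miR-690 rests on 2 probes of 15 and 16 bases and has been described in vesicles of macrophages, where it was linked to insulin sensitivity. The probes read 3.07 ± 1.04 (SD, n = 10 spots) and 1.22 ± 1.21 (n = 9) at day 2-4, not well above background. At day 8-10 they read 103 ± 2.20 (n = 9) and 60.5 ± 3.52 (n = 10). The windows were far apart on both probes, which were at least 24.2-fold and at least 14.2-fold higher at day 8-10 under the reported scaling and floor. The entry's log2 difference of 4.21 was 3.70 with the all-probe percentile and 1.31 with normexp. Its shorter probe was the brighter one, with the longer at 0.586 of it, the lowest such ratio among the 4 entries with 2 probes. Of the 4 entries studied in fat, muscle or macrophages (miR-690, miR-696, miR-709 and miR-712), 2 were detected at day 2-4 and 3 at day 8-10, and none detected on both arrays passed 2-fold. Over all mouse miRNAs 27.5% and 29.3% were detected, and 23.4% of those on both arrays passed. A list of 4 is too short to compare with these shares. miR-696, studied in muscle for its link to the coactivator Pgc-1α, stayed at or below 3.26.

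miR-681 and miR-718 were brightest in the middle of their probe sets. For miR-681 the first probe was not detected on either array. The other three read 4.64 ± 1.57, 1.31 ± 1.26 and 0.384 ± 0.854 (SD, n = 5 spots) at day 2-4, not detected, and 46.9 ± 1.88, 18.4 ± 1.20 and 13.1 ± 0.746 at day 8-10. The first probe read 4.11 at day 8-10, so the signal rose to the second probe. It dropped as further bases were added, and the last probe read 0.279 of the first detected one. The miR-681 entry was at least 5.12-fold higher under the reported settings. Its log2 difference of 2.36 was 0.53 with normexp. For miR-718 the second probe read 3.78 ± 1.84 and then 17.8 ± 2.71 (n = 5 each), and the third 5.94 ± 1.40 (n = 5) and then 14.0 ± 0.774 (n = 4). The first and the fourth probe were not detected on either array. The log2 difference of the third probe was 1.39 and the entry's mean, which includes a bound from the second probe, was 1.67 (spot SE 0.09). It could not be compared on both arrays when every spot had to be well above background, and it was 0.34 with normexp. miR-691 was detected at day 8-10 only, on the third and the fourth probes, at 7.40 ± 1.39 (n = 5) and 11.4 ± 0.365 (n = 4) against 2.44 ± 0.842 (n = 5) and 2.61 ± 0.437 (n = 4).

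In 4 other entries the signal rested on the longest probes. miR-706, whose sequence resembles the B1 repeat of the mouse genome, had 1 probe detected on both arrays, the 19-base probe, at 6.39 ± 0.605 and then 54.5 ± 2.87 (SD, n = 5 spots each). That probe was 9.74-fold higher at day 8-10. The 18-base probe read 0.529 ± 0.608 and then 7.30 ± 0.812, and the 16- and 17-base probes were not detected. The entry's mean log2 difference of 2.03 (spot SE 0.05) averages 3.28 with a bound of 0.77, and with normexp it was 0.58.

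miR-710 was read by its probes of 13 and 14 bases, at 30.0 ± 0.640 and 29.9 ± 3.02 (SD, n = 5 spots each) at day 2-4 and at 10.3 ± 0.723 and 9.80 ± 2.01 at day 8-10. These probes agreed in level and in difference (-1.36 and -1.44), while the 11- and 12-base probes were not detected on either array. The entry's mean was -1.40 (spot SE 0.07), and it was -0.28 with normexp. miR-711 held the widest spread of log2 differences over probes detected on both arrays. Its 15-base probe read 7.50 ± 1.01 and then 5.61 ± 1.02, and its 16-base probe 77.3 ± 5.02 and then 28.4 ± 1.82 (n = 5 each). The log2 differences were -0.13 and -1.26, the first within 2 spot SE of no difference and the second past 2-fold. At day 8-10 the 15-base probe lay close to the lowest detected signal of 5.55, to which lower spots were raised. Without the floor the mean over these probes was -0.74, close to the reported -0.69. What part the low signal or the added base played in the contrast was not tested. The entry's mean of -0.69 (spot SE 0.06) passed 2-fold under 3 of 13 alternative settings.

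miR-685 climbed by steps from probes of 10 to 13 bases, at 2.21 ± 1.54, 4.89 ± 1.02, 50.8 ± 3.91 and 108 ± 3.24 (SD, n = 5 spots each) at day 2-4. At day 8-10 it read 2.09 ± 0.956, 4.53 ± 1.21, 34.7 ± 1.49 and 57.5 ± 1.11. The last probe was 22.2 times the first detected one at day 2-4. The third and the fourth probes, detected on both arrays, had log2 differences of -0.36 and -0.73, and the entry stayed within 2-fold with a mean of -0.27 (spot SE 0.03) that includes a bound from the 11-base probe. Among the 4 entries that share a name with a human miRNA (miR-708, miR-711, miR-718 and miR-720), 3 were detected on both arrays, with miR-718 higher and miR-720 lower. Of all miRNAs detected on both arrays 15.9% were higher and 7.59% lower, and a list of 4 is too short to compare with these shares.

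**Figure D4:**
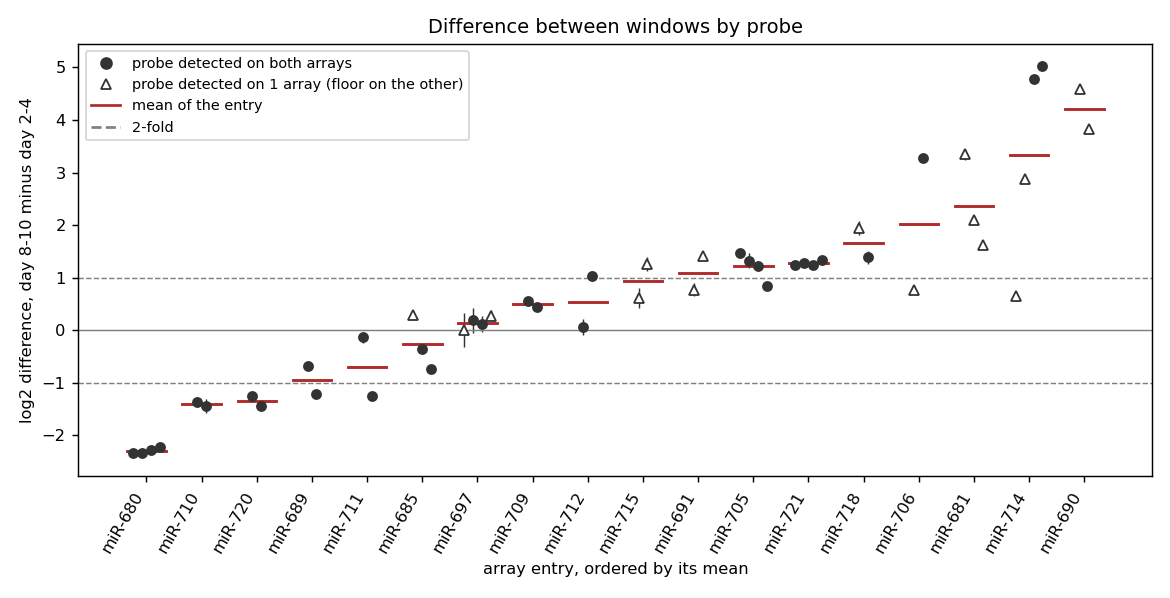
Log2 difference, day 8-10 minus day 2-4, of each probe of the 18 detected entries, ordered by the entry's mean (red bar); filled points were detected on both arrays with the spot SE as a vertical line, open triangles were detected on 1 array with the floor in place of the other, and dashed lines mark 2-fold. The miR-680 and miR-721 probes coincide, while those of miR-714 run from 0.65 to 5.02.

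Probes of 1 entry often differed in the size of the difference. Of the 12 entries with at least 2 probes detected on both arrays, 0 had probes of opposite sign, beside 6.93% of all mouse miRNAs with such probes. With so few entries the count lies near that share, and it became 1 or 2 under 6 of the alternative settings. The range of log2 differences over an entry's probes had a median of 0.21, beside 0.087 over 89 other miRNAs. It was over 0.5 in 4 of 12 entries (33.3%), beside 6 of 89 (6.74%), and the largest was 1.12 for miR-711, while the largest among the other miRNAs was 3.06. For miR-711 and for miR-712, with a range of 0.97, a probe lay at or near the lowest detected signal of an array. The comparison was not matched on probe number, as 38 of the 42 entries had 4 probes beside 226 of the 525 others. Entries with every one of 4 probes detected were 4 of 11 (36.4%) at day 2-4 (miR-680, miR-697, miR-705 and miR-721) and 4 of 14 (28.6%) at day 8-10 (miR-680, miR-705, miR-714 and miR-721). For the other 4-probe miRNAs the counts were 13 of 27 (48.1%) and 12 of 28 (42.9%). The last probe was the brightest in 8 of 14 detected entries at day 2-4 and in 12 of 18 at day 8-10. That count was not made for the other miRNAs, so it is not read as a trait of the range. Over the other 4-probe miRNAs with first and last probe detected, the last read a median of 1.75 and 1.73 times the first. The range held only 4 such entries per window, with medians of 0.935 at day 2-4 and 1.06 at day 8-10. Their ratios ran from 0.753 to 1.70 and from 0.972 to 80.2.

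Together the 160 probes held 3.53% of the summed probe signal at day 2-4 and 11.2% at day 8-10. The miR-1224 entry alone held 86.3% and 51.3% of that sum, and without it the shares were 25.7% and 23.0%.

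**Figure D5:**
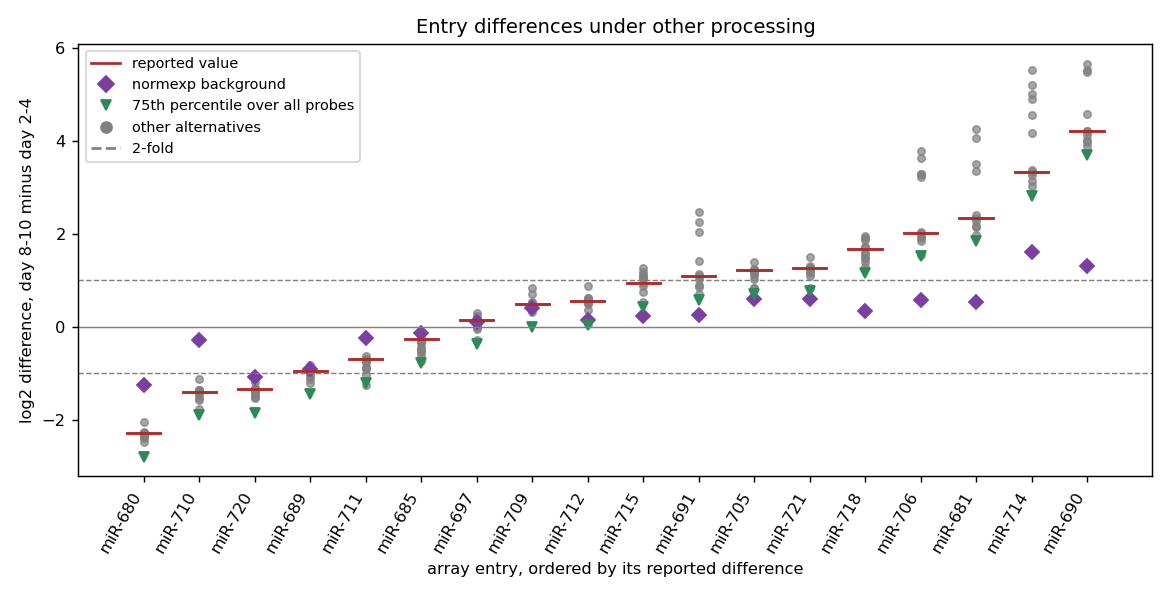
Log2 difference of each of the 18 detected entries as reported (red bar) and under the alternative settings (points), with normexp background correction as diamonds and the all-probe 75th percentile as triangles; dashed lines mark 2-fold. miR-680 and miR-720 stay below -1 and miR-714 above 1 under all 13 alternatives, while miR-706, miR-710 and miR-718 lie within 2-fold with normexp. The normexp setting adds 50 intensity units to every spot, which shrinks the differences of dim probes by construction.

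The 24 entries detected on neither array were miR-682, miR-683, miR-684, miR-686, miR-687, miR-688, miR-692, miR-693-3p, miR-693-5p, miR-694, miR-695, miR-696, miR-698, miR-699, miR-700, miR-701, miR-702, miR-703, miR-704, miR-707, miR-708, miR-713, miR-717 and miR-719. Their 96 probes read from -1.19 to 4.22 (median -0.28) at day 2-4 and from -1.33 to 3.92 (median -0.12) at day 8-10. The highest were probes of miR-702 and of miR-708, a miRNA conserved in human. The negative control spots had 99th percentiles of 1.92 and 2.15. No fold is given for these entries, since both sides were not well above background.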

How the data were processed

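Agilent 1-colour mouse miRNA arrays were analysed, 1 per window. Per the file headers, the authors read spot intensities with Agilent's Feature Extraction software, version 9.5.3.1. The deposited processed signal is background-subtracted intensity. The deposited value table equalled it in 24986 of 24986 spots (relative tolerance 1e-06). Its intensity is linear and not centred, with column medians of 0.516 and 0.646. Control spots and spots with outlier marks were left out (12 and 14 outliers among the 840 spots of the entries). Array scaling, the floor and detection followed the report. Spots were averaged per probe on the log2 scale after scaling, then over the probes of an entry detected on at least 1 array. SEs over spots were carried through, and entries at least 2-fold apart by more than 2 SE were counted.

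Every entry detected on at least 1 array is named. The entries and lists were chosen with earlier results of these data known. Mature sequences, seeds and gene spans were matched by name in RefSeq. Alternatives covered scaling (all probes, quantile, none), normexp (offset 50), detection, outliers, averaging, the entry's value and the floor. Scaling without the entries' own probes was chosen after seeing the data. The calculation was tested on simulated data. Python 3.11.15, pandas 2.3.3, numpy 2.4.6, matplotlib 3.10.9, R 4.3.3 and limma 3.58.1 were used.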

Additional observations from a re-analysis of the deposited data

How the results depend on the processing

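No paired analysis was possible because each window had 1 array. Over 13 alternatives miR-680 and miR-720 stayed at least 2-fold lower and miR-714 at least 2-fold higher. The 5 entries higher became 3 with the all-probe 75th percentile, 3 with quantile normalization and 1 with normexp, and 7 when at least 1 spot had to be well above background. The 3 entries lower became 5 with the all-probe percentile and 5 with the brightest probe only, and 2 with normexp. Because normexp here adds 50 intensity units to every spot, dim entries lose fold under it by construction. The median log2 difference of 0.32 turned to -0.19 with the all-probe percentile, -0.078 with quantile normalization and -0.0011 when all spots had to be well above background. It was 0.14 with no scaling, 0.12 with normexp, 0.47 when at least 1 spot had to be well above background, 0.032 with the brightest probe only, 0.50 with the scanner's gene signal and 0.26 without the entries' own probes in the scale. The median of all miRNAs moved from 0.20 to -0.30, -0.11, 0.019 and 0.12 under the all-probe, quantile, unscaled and normexp settings. Entries with probes of opposite sign, 0 as reported, numbered 2 with the all-probe percentile, with no scaling and with at least 1 spot well above background. They numbered 1 with quantile normalization, with normexp and without the entries' own probes. The causes were not tested. Detected entries numbered 17 and 19 with at least 1 spot and 13 and 17 with all spots. Signal over background limits miR-697, miR-712, miR-715 and miR-691, each with a detected probe near the lowest detected signals of 4.86 and 5.55. It also limits miR-706 and miR-718, whose brightest probes read only 6.39 and 5.94 at day 2-4. The brightest miR-710 probe read 10.3 at day 8-10, and 1 of the detected miR-711 probes lay near the lowest detected signal.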

Other observations

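The star forms of miR-708 and miR-712, the opposite arms of those hairpins, were outside the range by name. None of their probes was detected. The miR-712* probes read 2.12 to 2.19 at day 2-4 and 0.365 to 3.61 at day 8-10, and the miR-708* probes -0.922 to 0.0951 and -0.384 to 0.117.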
